A study of Mus musculus with 4 samples.

Results

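The TRIM (tripartite motif) ubiquitin ligases were followed in cardiac progenitor cells treated with a plant compound. Members were the protein-coding gene IDs of the deposited count table whose symbol starts with Trim and a digit. This gave 68 of 39179 gene IDs under 67 symbols, since Trim30b has 2 IDs, and the pseudogene Trim30e-ps1 was left out. The cells were differentiated from mouse embryonic stem cells of a line in which Gata6, a regulator of early heart and gut tissue, can be induced, so both groups carry that transgene. From day 6 they were cultured for 2 days with the solvent DMSO (0.1%) or with 10 µM cucurbitacin I hydrate, a triterpenoid that inhibits the JAK2 kinase and the transcription factor STAT3. Each group had 2 RNA-seq libraries, with total counts of 27069312 and 25573785 for DMSO and 26773886 and 23759431 for cucurbitacin I. The titles place the harvest at day 8 and the extraction protocol at day 10. Whether replicate libraries are separate cultures is not stated in the labels, so the p-values reflect only the spread between these libraries, which may be technical.

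TRIM proteins carry a RING domain that passes ubiquitin to a substrate, a B-box, a coiled coil through which they pair, and a variable end that recognises the target. Many of them serve antiviral defence, and their genes are switched on by interferon, which acts through JAK kinases and transcription factors such as IRF9 on a promoter element called ISRE. A smaller branch, the MuRF proteins and their relatives, works in the sarcomere and membrane of heart and skeletal muscle. Others are general regulators of chromatin, protein quality and the cell cycle in most cell types. The genes were grouped by these known roles into 17 antiviral, 5 muscle and 13 housekeeping IDs, with 33 others.

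Promoters were searched for the elements that interferon signalling is known to use. RefSeq windows on GRCm38.p6, from 250 bases before to 50 after each start, were listed for 52 of the 67 symbols. The ISRE core was searched on both strands as a pair of GAAA runs with 2 free bases between them, which reads as a pair of TTTC runs on the opposite strand. It was in the window of 8 of 15 antiviral genes (53.3%), 0 of 4 muscle genes and 0 of 9 housekeeping genes. Among the 24 others with a window only Trim2 held it, so the share outside the antiviral class was 1 of 37 (2.7%). Of all 27025 genes with a window, 3.99% held the core. The following 30-base stretches are shown because they carry these matches in the antiviral genes, in 5′ to 3′ direction along the gene, with the matched letters, including the free bases between them, in capitals.
Trim30a (chr7:104465210-104465239, minus strand): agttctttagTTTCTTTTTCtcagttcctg
Trim30d (chr7:104507871-104507900, minus strand): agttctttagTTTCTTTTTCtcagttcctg
Trim12c (chr7:104353359-104353388, minus strand): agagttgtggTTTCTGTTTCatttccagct
Trim5 (chr7:104288136-104288165, minus strand): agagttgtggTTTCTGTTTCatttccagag
Trim12a (chr7:104315466-104315495, minus strand): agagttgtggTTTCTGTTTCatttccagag
Trim34a (chr7:104244457-104244486, plus strand): tggtttggagTTTCAGTTTCttttctctgc
Trim21 (chr7:102565447-102565476, minus strand): ctgagagGAAACTGAAAGTGAAAtttggac
Trim26 (chr17:36836979-36837008, plus strand): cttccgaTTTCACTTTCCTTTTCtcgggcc

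Trim30a and Trim30d had the same 30 letters, Trim5 and Trim12a had the same 30 as each other, and Trim12c differed from those only at the final bases. All 6 genes from Trim30a to Trim34a in this list lie in 1 tandem cluster on chromosome 7. Trim21 and Trim26 held overlapping matches, which give 3 runs in a row in capitals. The matches began between 160 bases before and 19 bases after the start site. The GAS core TTCNNNGAA, the letters bound by STAT dimers, was in the windows of 2 antiviral genes (Trim30c and Trim38), 0 muscle, 0 housekeeping and 4 other genes, against 9.55% of all genes, and none of its matches overlapped an ISRE core. A match is a description of the letters and does not show binding. The 250 bases upstream of the start are printed for 2 genes that both fell with the compound, Trim30a with a match in capitals and Trim25 with none.
Trim30a (chr7:104465194-104465443, minus strand): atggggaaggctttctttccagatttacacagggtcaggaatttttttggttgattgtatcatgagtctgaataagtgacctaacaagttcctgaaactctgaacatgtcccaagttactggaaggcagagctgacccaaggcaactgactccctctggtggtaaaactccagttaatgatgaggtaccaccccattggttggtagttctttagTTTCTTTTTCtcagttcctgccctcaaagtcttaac
Trim25 (chr11:88999153-88999402, plus strand): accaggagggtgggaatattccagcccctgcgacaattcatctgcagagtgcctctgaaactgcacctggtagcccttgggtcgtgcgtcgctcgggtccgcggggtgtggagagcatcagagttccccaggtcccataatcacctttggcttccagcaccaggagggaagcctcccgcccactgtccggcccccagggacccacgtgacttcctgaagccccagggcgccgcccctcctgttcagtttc

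Of the 68 IDs, 63 had at least 1 count and 5 had none in any library. A filter on low counts left 46 for testing with edgeR, in a fit over all 16722 genes. Under cucurbitacin I, 16 members were lower and 7 were higher at an adjusted p below 0.05, and 23 did not pass. Lower calls made up 34.8% of the tested members against 19.5% of all genes tested, and higher calls 15.2% against 13.9%; calls in either direction covered 33.4% of all genes. The median log2 fold change of the 46 was −0.10, against −0.0055 for all genes. Scaling by library totals alone moved the median of all genes to −0.24, and then gave 18 members lower and 4 higher, with 4767 genes lower and 1059 higher in the whole table in place of 3259 and 2318. The libraries of both groups did not overlap for 38 of the 46 members, where 73% of all genes tested did not overlap. Of the 46, 7 did not exceed the filter's level in both groups, and the median of the other 39 was 0.05. Trim9, Trim10, Trim14, Trim30a and Trim34b exceeded it in DMSO only and Trim17 in cucurbitacin I only. A difference was thus partly built into their passing. Trim66 exceeded it in both libraries of neither group. In these bulk libraries, fewer cells of a type and less RNA per cell cannot be told apart.

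**Figure D1:**
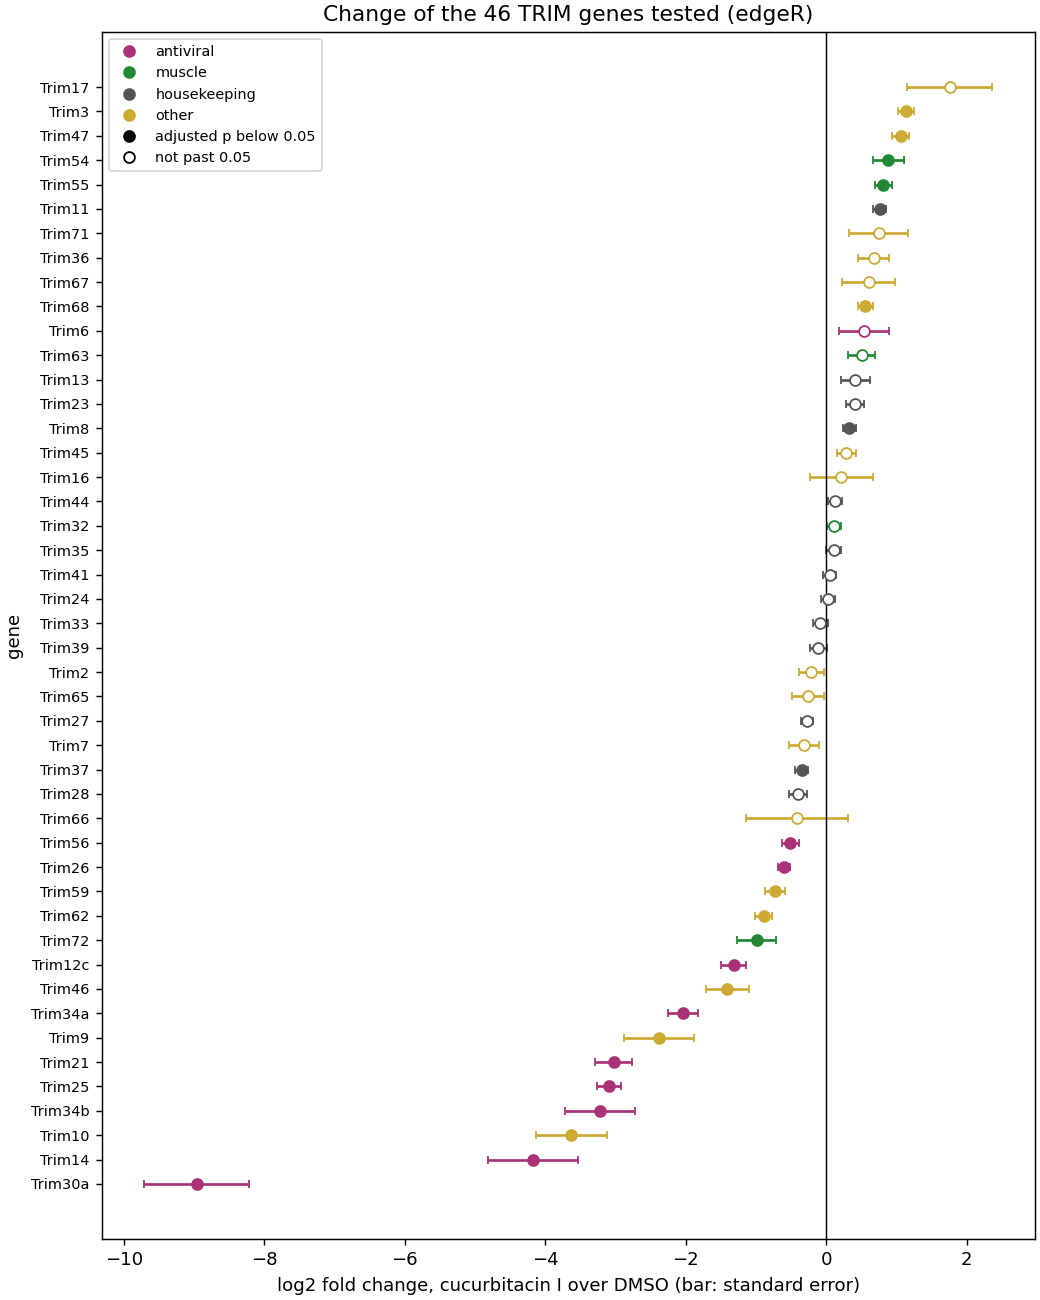
The log2 fold change of cucurbitacin I over DMSO for each of the 46 TRIM genes tested, with standard error bars, coloured by role and filled where the edgeR adjusted p was below 0.05. Antiviral genes fill most of the lower end, from −0.51 to −8.96, interspersed with genes of other classes such as Trim10 and Trim9, while muscle genes lie between −0.99 and 0.88.

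The antiviral members were lower under cucurbitacin I in 9 of the 10 genes tested, higher in 0, and 1 (Trim6) was not called. Lower calls made up 90% of the tested class, against 19.5% of all genes tested. The class median log2 fold change was −2.53, and −1.32 for the 7 that exceeded the filter's level in both groups. Trim30a, Trim14 and Trim34b exceeded that level in DMSO only, so a difference was partly built into their passing. Trim30a fell furthest, followed by Trim14, Trim34b, Trim25 and Trim21, while Trim26 and Trim56 fell least. Interferon-responsive genes of these cells are known from earlier results to be lower under the compound, so the direction of this class is not independent evidence.

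Trim25, an E3 ligase that acts with the RNA sensor RIG-I and with the zinc-finger antiviral protein, was the most abundant antiviral member in DMSO. It lies on chromosome 11 (88999376 to 89020293, plus strand, mm10). Its TMM-scaled level was 109 and 138 CPM (counts scaled to the library's effective size) in DMSO and 16.0 and 13.01 CPM in cucurbitacin I. Both treated libraries were far below both controls. The log2 fold change was −3.09 (standard error, SE, 0.17; edgeR adjusted p = 0.00147). Per kilobase of exon it ranked 6th of the family in DMSO and 30th in cucurbitacin I.

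Trim21, the cytosolic Fc receptor that ubiquitinates antibody-coated particles, lies on chromosome 7 (102557922 to 102565469, minus strand) apart from the tandem cluster. Its level was 42.1 and 67.6 CPM in DMSO and 7.21 and 6.23 CPM in cucurbitacin I. The groups did not overlap, though the DMSO libraries differed from each other more than for most genes. The log2 fold change was −3.03 (SE 0.26, edgeR adjusted p = 0.0027). Trim14 encodes a RING-less adaptor at mitochondria that joins the MAVS signalling complex. It had 96 and 126 counts in DMSO and 9 and 1 in cucurbitacin I. The ratio of scaled group counts was 18.1, with an exact 95% binomial interval of 9.66 to 38.3 that covers counting error only. Its edgeR log2 fold change was −4.17 (SE 0.64, adjusted p = 0.00909), and it was −6.29 without cucurbitacin I replicate 1 and −3.39 without cucurbitacin I replicate 2. In the annotation, 31.3% of its exonic bases lie under Nans on the opposite strand, which had 7666 counts over the 4 libraries against 232 for Trim14. The sources used here do not give the strand setting of the counting.

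Trim26 and Trim56, which act on signalling downstream of nucleic acid sensors, kept most of their level. Trim26 had 85.2 and 86.6 CPM in DMSO and 57.5 and 55.6 CPM in cucurbitacin I. Its replicates lay close together, and the log2 fold change was −0.60 (SE 0.09, edgeR adjusted p = 0.00776). Trim56 had 55.2 and 64.1 CPM in DMSO and 44.3 and 39.5 CPM in cucurbitacin I. Its groups did not overlap, and the log2 fold change was −0.51 (SE 0.12, edgeR adjusted p = 0.0271). The call of Trim56 was lost when either DMSO library or cucurbitacin I replicate 2 was left out, with adjusted p up to 0.129. The other 8 antiviral calls held with any 1 library left out.

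The tandem cluster of chromosome 7 holds 11 member IDs within 289057 bp (104218793 to 104507849, mm10). Of these, 4 were lower (Trim30a, Trim34b, Trim34a and Trim12c), Trim6 was not called and 6 were not tested. Trim30a is a mouse gene whose product dampens Toll-like receptor signalling. It had 467 and 870 counts in DMSO and 2 and 0 in cucurbitacin I. The treated libraries were nearly empty of it. The ratio of scaled group counts was 545 (exact 95% binomial interval 151 to 4504), and the edgeR log2 fold change of −8.96 (SE 0.75, adjusted p = 0.00254) depends on the prior count. It was −12.29 without cucurbitacin I replicate 1, −8.10 without cucurbitacin I replicate 2 and −8.35 without DMSO replicate 2.

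Trim34a had 11.7 and 15.1 CPM in DMSO and 3.44 and 3.07 CPM in cucurbitacin I, a log2 fold change of −2.04 (SE 0.22, edgeR adjusted p = 0.00394). Its near copy Trim34b had 56 and 49 counts in DMSO and 7 and 2 in cucurbitacin I, with a log2 fold change of −3.22 (SE 0.50, edgeR adjusted p = 0.00911). The ratio of scaled group counts was 9.51 (exact 95% binomial interval 4.82 to 21.4), and the log2 fold change was −4.27 without cucurbitacin I replicate 1. Both genes fell, with no overlap between groups in either. Their coding sequences were identical at 98.8% of aligned bases, so reads may be split between them or left uncounted in a way the counts do not show. In the deposited coordinates the span of Trim34a also overlaps those of Trim5, Trim12a, Trim34b and Trim12c. Trim12c, a mouse relative of the retrovirus restriction gene TRIM5 of primates, had 43.3 and 59.4 CPM in DMSO and 19.6 and 21.6 CPM in cucurbitacin I. Its groups did not overlap, and the log2 fold change was −1.32 (SE 0.18, edgeR adjusted p = 0.00666).

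Trim5 and Trim12a share 96.6% and 96.4% of aligned coding bases with Trim12c, and Trim5 had 2 and 4 counts in DMSO against 0 and 0. Trim30d, 90.2% identical to Trim30a, had 4 and 9 counts in DMSO and none in cucurbitacin I, at least 3.53-fold lower against a floor of 3 counts over the group. Trim30c had 5 and 1 counts in DMSO and none in cucurbitacin I. The remaining IDs were Trim12a at 0 and Trim30b with 1 count in all. Because these copies are so alike, the place of a read among them is uncertain, in particular for the weakly counted ones.

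Trim6, which builds free ubiquitin chains that activate the kinase IKK-epsilon, lies at the edge of the same cluster and did not fall with its neighbours. It had 6.58 and 12.3 CPM in DMSO and 16.6 and 10.7 CPM in cucurbitacin I. The groups overlapped and the replicates spread widely, with a log2 fold change of 0.54 (SE 0.36, edgeR adjusted p = 0.299). Outside the cluster, Trim38, a brake on innate signalling, was barely detected, with 1 and 2 counts in DMSO and 5 and 1 in cucurbitacin I.

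**Figure D2:**
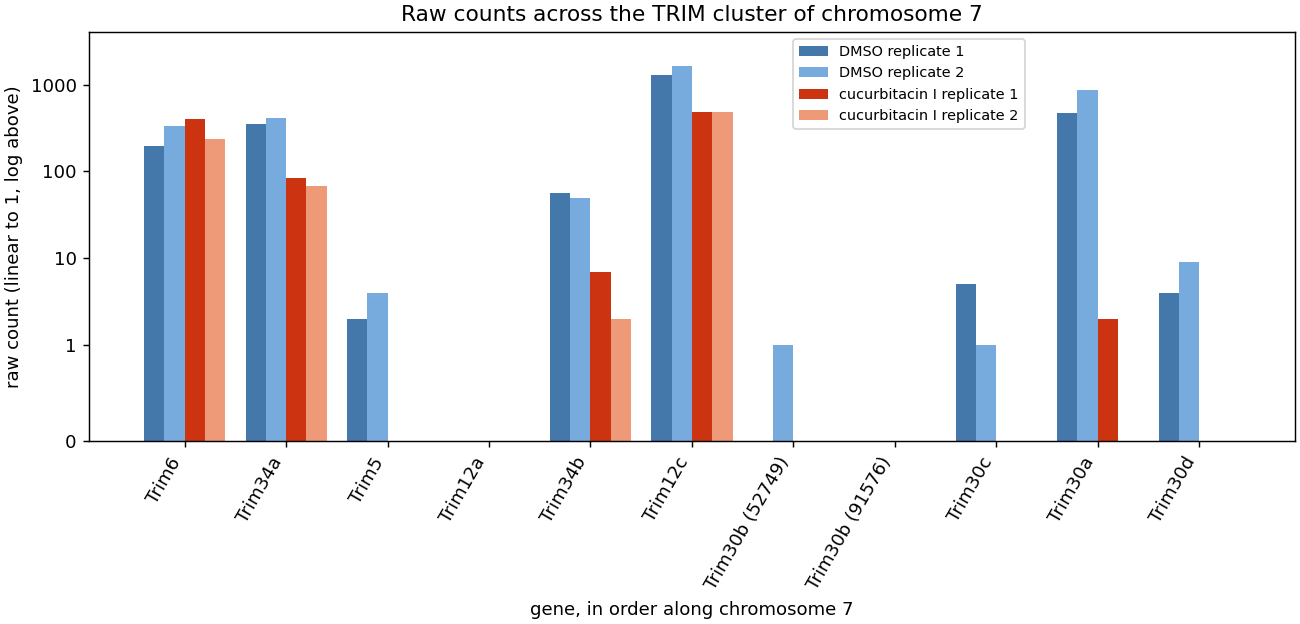
Raw counts in each of the 4 libraries for the 11 TRIM IDs of the chromosome 7 cluster, in order along the chromosome, on an axis that is linear up to 1 and logarithmic above; the Trim30b IDs are told apart by their last digits. Trim34a, Trim34b, Trim12c and Trim30a stand higher in both DMSO libraries, Trim6 overlaps between groups, and the other IDs have at most 9 counts in a library.

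The DMSO libraries themselves differed in this class. In 9 of the 10 tested antiviral members the level was higher in DMSO replicate 2 than in replicate 1, with a median log2 difference of 0.41 and a range from −0.05 for Trim34b to 1.04 for Trim30a. Housekeeping members were higher in replicate 2 in 7 of 13, with a median of 0.02, and all genes had a median of −0.0020. The part of these differences in the result was not tested. In each of the 9 antiviral genes called, both treated libraries were below both DMSO libraries. With 2 libraries per group, being called already favours such separation, and 73% of all genes tested did not overlap.

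The genes around these ligases gave 7 lower and 1 higher of the 14 interferon signalling genes tested. For this and the next 2 lists, the shares over all genes tested were 19.5% lower and 13.9% higher. Irf9, a transcription factor gene of the interferon response, had a log2 fold change of −2.69 (edgeR adjusted p = 0.00159), and Irf7, which amplifies the response, of −4.20 (edgeR adjusted p = 0.00343). Stat2 fell by 1.22 and Irf1 by 1.18, while the receptor chains Ifnar1 (0.30) and Ifnar2 (0.21) and the kinases Jak1 (0.38) and Tyk2 (0.40) did not pass. Ifngr2, a chain of the interferon gamma receptor, rose by 0.79. Among 12 sensing partners of TRIM ligases, 8 were lower and 1 was higher. The RIG-I gene Ddx58 fell by 3.73, and Zc3hav1, which encodes the zinc-finger antiviral protein, fell by 2.12, so the genes of both partners of TRIM25 were lower, as Trim25 was. The adaptor genes Mavs (0.27) and Traf6 (0.09) and the RIG-I ligase gene Rnf135 (0.08) did not pass, and the kinase gene Tbk1 rose by 0.47. Of 10 ubiquitin-conjugating enzymes, which hand ubiquitin to RING ligases, Ube2l6 fell by 3.12 and Ube2d1 rose by 0.34, and the other 8 did not pass. Ube2l6 is best known for carrying ISG15, and Isg15 itself fell by 7.83 on the log2 scale.

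Several marker lists of non-cardiac cells moved in the same direction as the antiviral class. Beside their counts stands the share of all genes tested that was lower, 19.5%. Of 10 myeloid markers tested, 7 were lower, with summed levels of 58.1 and 57.4 CPM in DMSO and 36.3 and 31.9 CPM in cucurbitacin I. Tyrobp was at 0 in both treated libraries, while Csf1r, Lcp1 and Cd68 did not pass. Endothelial markers were lower in 5 of 7, with summed levels of 136 and 168 CPM in DMSO and 25.7 and 34.9 CPM in cucurbitacin I and Emcn at 0 under the compound. Endoderm markers were lower in 7 of 7, from 513 and 767 CPM to 4.34 and 6.01 CPM. The part of these cells in the antiviral result was not tested.

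**Figure D3:**
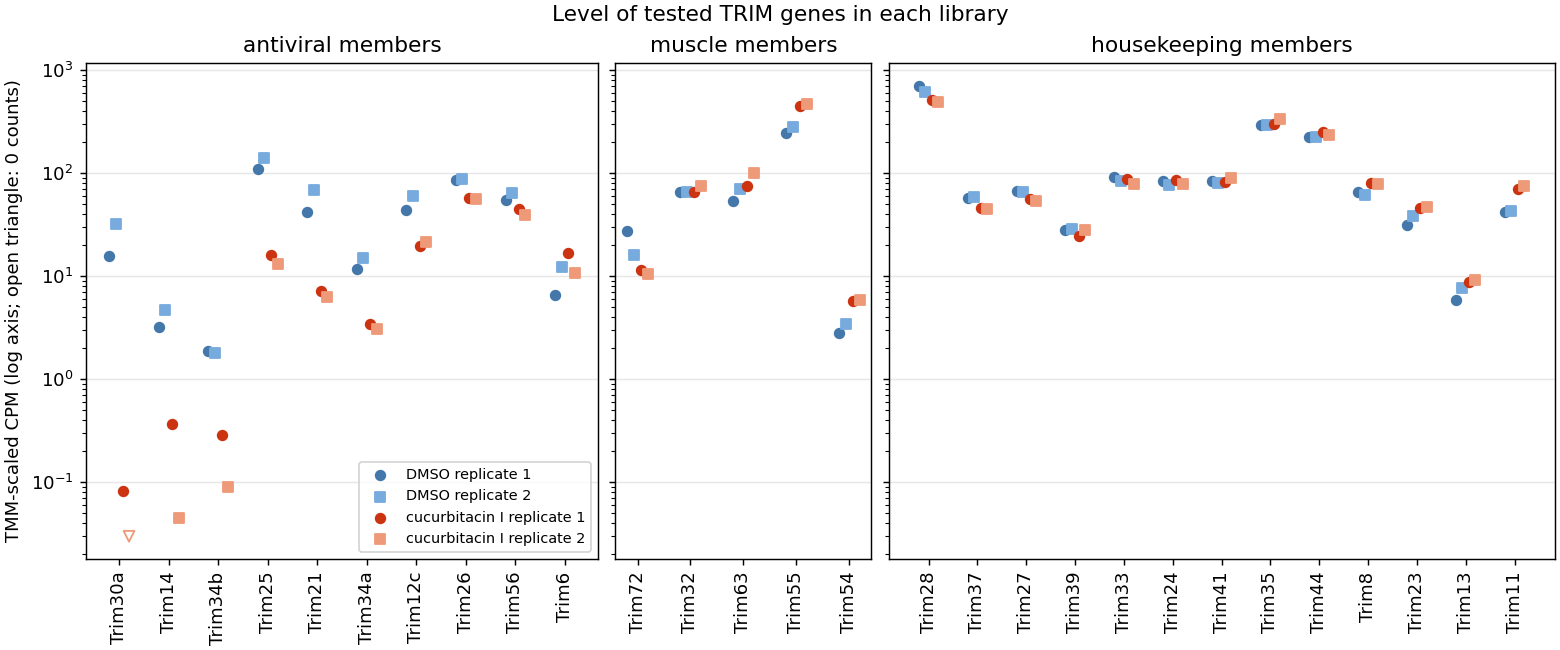
TMM-scaled CPM in each library, on a log axis, for the tested antiviral, muscle and housekeeping TRIM genes, ordered within a class by fold change; the open triangle marks 0 counts. The 9 antiviral genes called lower have both treated libraries below both DMSO libraries, Trim55 and Trim54 have both above, and most housekeeping genes lie at like levels in all 4.

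The muscle members, all 5 of which were tested, split, with 2 higher (40%), 1 lower (20%) and 2 not called. Of all genes tested, 13.9% were higher and 19.5% lower. Their median log2 fold change was 0.51. Trim55 (MuRF2), which sits on sarcomeric titin and microtubules during myofibril assembly, had 246 and 276 CPM in DMSO and 450 and 468 CPM in cucurbitacin I. Both treated libraries were well above both controls. The log2 fold change was 0.81 (SE 0.12, edgeR adjusted p = 0.00775), and the adjusted p was 0.0547 without DMSO replicate 1. Per kilobase of exon it was second to Trim28 in DMSO, at 92.4 and 104 against 169 and 147 CPM per kilobase. In cucurbitacin I the order was turned, with Trim55 at 169 and 176 and Trim28 at 122 and 118 CPM per kilobase.

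Trim54 (MuRF3), a microtubule-binding relative, was scarce, at 2.81 and 3.46 CPM in DMSO and 5.74 and 5.83 CPM in cucurbitacin I. Its groups did not overlap, and the log2 fold change was 0.88 (SE 0.22, edgeR adjusted p = 0.0331). That call was lost with any 1 of the 4 libraries left out (adjusted p up to 0.172) and with scaling by library totals. Trim63 (MuRF1), which marks thick-filament proteins for degradation in muscle wasting, had 53.1 and 69.2 CPM in DMSO and 74.0 and 99.8 CPM in cucurbitacin I. The lower treated library lay just above the higher control, and the log2 fold change of 0.51 did not pass (SE 0.19, edgeR adjusted p = 0.0959). Trim32, a ligase for thin-filament proteins whose human gene is mutated in a limb-girdle muscular dystrophy, had a log2 fold change of 0.11 (SE 0.10, edgeR adjusted p = 0.448), which turned to −0.13 with library totals.

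Trim72 (MG53), which patches tears in the muscle cell membrane, went the opposite way from Trim55. It had 27.5 and 16.0 CPM in DMSO and 11.4 and 10.5 CPM in cucurbitacin I. The groups did not overlap, but the DMSO libraries were far apart from each other. The log2 fold change was −0.99 (SE 0.27, edgeR adjusted p = 0.042), and the call was lost without DMSO replicate 1 or either cucurbitacin I library (adjusted p up to 0.162) and with limma-voom. A share of 27.6% of its exonic bases lies under Gm15533 on the opposite strand, which had 9 counts in all.

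Of 13 tested genes that work beside these ligases in muscle, 4 were higher and 1 was lower, where 13.9% and 19.5% of all genes were. Asb2, a ubiquitin ligase subunit of muscle, rose by 1.41, Ttn (titin) by 1.57, Fbxo30 by 0.59 and Smyd1 by 0.58 on the log2 scale, and Tcap, the titin cap, fell by 1.28. Fbxo32 (atrogin-1), the usual partner of MuRF1 in muscle wasting, had a log2 fold change of 0.07 (SE 0.39) and its replicates differed widely, at 247 and 482 CPM in DMSO and 279 and 487 CPM in cucurbitacin I. Cardiomyocyte markers were higher in 6 of 8, with summed levels of 9428 and 12543 CPM in DMSO and 31796 and 40168 CPM in cucurbitacin I. Of 6 skeletal muscle genes, Myod1 and Myf5 were at 0 in all 4 libraries, and Myog and Ckm were too scarce to test. The 2 tested did not pass. Tnnt3 had 1.24 and 2.28 CPM in DMSO and 6.11 and 3.21 CPM in cucurbitacin I (edgeR adjusted p = 0.0606). Actn3 had 1.97 and 3.64 CPM in DMSO and 1.93 and 2.44 CPM in cucurbitacin I (edgeR adjusted p = 0.492). Trim55 moved with the cardiomyocyte markers and Trim72 against them, and the part of the number of cardiomyocytes in either was not tested.

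Of the 13 housekeeping members, 1 was lower (7.69%, against 19.5% of all genes tested) and 2 were higher (15.4% against 13.9%). The other 10 were not called. For 12 of the 13 the log2 fold change was within 0.5 of no change, and the class median was 0.05. The groups did not overlap for 10 of the 13, where 73% of all genes tested did not overlap. Trim28 (KAP1), the corepressor of KRAB zinc-finger proteins and the most abundant member per kilobase in DMSO, had 703 and 611 CPM in DMSO and 507 and 491 CPM in cucurbitacin I. Both treated libraries were below both controls. Its log2 fold change of −0.40 (SE 0.13) did not pass with edgeR (adjusted p = 0.0648) but did with DESeq2 (adjusted p = 0.0167) and, at −0.63, with library totals (edgeR adjusted p = 0.0167). Among 10 tested partners in TRIM28 silencing, Cbx5 and Cbx1, which encode heterochromatin proteins, fell by 0.40 and 0.52, Mphosph8 of the HUSH complex rose by 0.46, and Setdb1, the histone methyltransferase that TRIM28 recruits, had a log2 fold change of 0.10 that did not pass.

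The TRIM28 relatives Trim24, a coregulator of retinoic acid receptors, and Trim33, a regulator of SMAD4, had log2 fold changes of 0.03 (SE 0.10, edgeR adjusted p = 0.841) and −0.09 (SE 0.11, edgeR adjusted p = 0.558). Trim24 lay at 83.0 and 76.9 CPM in DMSO and 85.6 and 77.5 CPM in cucurbitacin I, which overlap. Trim35 (0.10), Trim44 (0.12) and Trim41 (0.05), among the 5 most abundant members per kilobase in DMSO, did not pass either, and these 3 and Trim24 turned negative with library totals (−0.13, −0.12, −0.18 and −0.21). Trim27 (−0.27, edgeR adjusted p = 0.0669) and Trim39 (−0.11, edgeR adjusted p = 0.504) were not called. Nor were Trim23 (0.41, edgeR adjusted p = 0.0540), which carries an ARF GTPase domain, and Trim13 (0.41, edgeR adjusted p = 0.170), a ligase of the endoplasmic reticulum.

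Trim11, which takes part in the removal of misfolded nuclear proteins, rose most in this class. It had 42.2 and 42.7 CPM in DMSO and 69.2 and 74.8 CPM in cucurbitacin I, with close replicates and no overlap. The log2 fold change was 0.76 (SE 0.09, edgeR adjusted p = 0.00538). Trim8, known to act on the JAK-STAT inhibitor SOCS1, rose by 0.33 (SE 0.09, edgeR adjusted p = 0.0408), a call that 9 of 13 alternatives lost, among them each library left out in turn (adjusted p up to 0.194), DESeq2 and library totals. Trim37, which controls centrosome number and is mutated in human mulibrey nanism, fell by 0.35 (SE 0.09, edgeR adjusted p = 0.034). Its call was lost with any 1 library left out (adjusted p up to 0.148) and with DESeq2.

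Of the 33 IDs in no role list, 18 were tested. Of these, 5 were lower (27.8%, against 19.5% of all genes tested) and 3 were higher (16.7% against 13.9%). Trim3, a ligase best known from neurons, rose most of the family's called members, from 54.4 and 63.6 CPM in DMSO to 136 and 123 CPM in cucurbitacin I. The groups were well apart, with a log2 fold change of 1.14 (SE 0.12, edgeR adjusted p = 0.00375), and per kilobase it moved from 13th to 6th in the family. Trim47 had 17.6 and 20.5 CPM in DMSO and 41.1 and 38.4 CPM in cucurbitacin I, a log2 fold change of 1.06 (SE 0.13, edgeR adjusted p = 0.00506). It shares 225 exonic bases with its neighbour Trim65, which had 437 counts over the 4 libraries against 2936 for Trim47. Trim68 rose by 0.55 (edgeR adjusted p = 0.0153), a call lost without either DMSO library (adjusted p up to 0.0844) and with library totals.

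Trim10, a gene of red cell differentiation, fell furthest of these, from 62 and 63 counts in DMSO to 2 and 6 in cucurbitacin I. The ratio of scaled group counts was 12.7 (exact 95% binomial interval 6.27 to 30.1), and the log2 fold change was −3.63 (SE 0.50, edgeR adjusted p = 0.00713). It was −2.99 without cucurbitacin I replicate 1 and −4.66 without cucurbitacin I replicate 2. Trim58, which acts in the last steps of red cell formation, had 5 and 10 counts in DMSO and none in cucurbitacin I, at least 4.08-fold lower against a floor of 3 counts over the group. Both genes went with the erythroid markers, which were lower in 7 of 8, where 19.5% of all genes tested were lower. Summed levels of these markers were 342 and 425 CPM in DMSO and 19.9 and 51.5 CPM in cucurbitacin I. The part of red cells in these values was not tested.

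Trim9 and Trim46 are best known from axons. Trim9 had 35 and 24 counts in DMSO and 3 and 6 in cucurbitacin I, a ratio of scaled group counts of 5.34 (exact 95% binomial interval 2.63 to 12.3). Its log2 fold change was −2.38 (SE 0.50, edgeR adjusted p = 0.0197), a call lost without either DMSO library or cucurbitacin I replicate 1 (adjusted p up to 0.108); it was −3.01 without cucurbitacin I replicate 2. Trim46 had 5.28 and 3.50 CPM in DMSO and 1.72 and 1.58 CPM in cucurbitacin I, a log2 fold change of −1.41 (SE 0.30, edgeR adjusted p = 0.0214), with an adjusted p of 0.116 without DMSO replicate 1. Of its exonic bases, 239 lie under Krtcap2 on the opposite strand, which had 5231 counts over the 4 libraries against 330 for Trim46. Both axonal genes were lower in each treated library than in each control. Trim62 fell by 0.89 (edgeR adjusted p = 0.00718), with 25.3 and 26.7 CPM in DMSO and 13.7 and 14.4 CPM in cucurbitacin I. Trim59 fell by 0.73 (edgeR adjusted p = 0.0183), a call lost without either DMSO library (adjusted p up to 0.0779).

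The 10 tested members of this class that were not called had log2 fold changes from −0.41 for Trim66 (0.94 without DMSO replicate 1, −1.07 without DMSO replicate 2) to 1.76 for Trim17. Trim17 had 13 and 3 counts in DMSO and 20 and 24 in cucurbitacin I (SE 0.61, edgeR adjusted p = 0.0754), a ratio of scaled group counts, DMSO over cucurbitacin I, of 0.296 (exact 95% binomial interval 0.156 to 0.536). Its log2 fold change was 3.05 without DMSO replicate 1 and 1.12 without DMSO replicate 2, and 18.9% of its exonic bases lie under Hist3h2a on the same strand. The 22 untested members had at most 12 counts in a library, and 5 of them had none. Among 7 tested genes of TRIM type with other names, Mid2 rose by 1.22 and 6 did not pass, including Pml (log2 fold change −0.48, edgeR adjusted p = 0.106), a nuclear body protein gene that interferon also induces.

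The summed level of the family hardly differed between libraries in CPM, at 2800 and 2860 in DMSO and 2788 and 2780 in cucurbitacin I. Summed per kilobase of exon, it was 652 and 671 in DMSO and 683 and 694 in cucurbitacin I, which do not overlap. The make-up of the family differed as well. Per kilobase of exon, the antiviral class held 11.0% and 14.3% of the family's level in DMSO and 4.13% and 3.68% in cucurbitacin I. The muscle class held 22.3% and 23.6% in DMSO and 32.9% and 35.0% in cucurbitacin I. Housekeeping genes held 57.7% and 52.8% in DMSO and 50.8% and 50.4% in cucurbitacin I, and the others 8.97% and 9.34% against 12.2% and 10.9%. None of the 4 shares overlapped between groups. Of single genes tested, 73% did not overlap. Single genes weighed heavily in some of the shares. In the muscle class, Trim55 held 92.4 and 104 of 146 and 158 CPM per kilobase in DMSO. Under cucurbitacin I it held 169 and 176 of 225 and 243. In the housekeeping class, Trim28, which was not called with edgeR, held 169 and 147 of 376 and 354 in DMSO. Under cucurbitacin I it held 122 and 118 of 347 and 349.

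**Figure D4:**
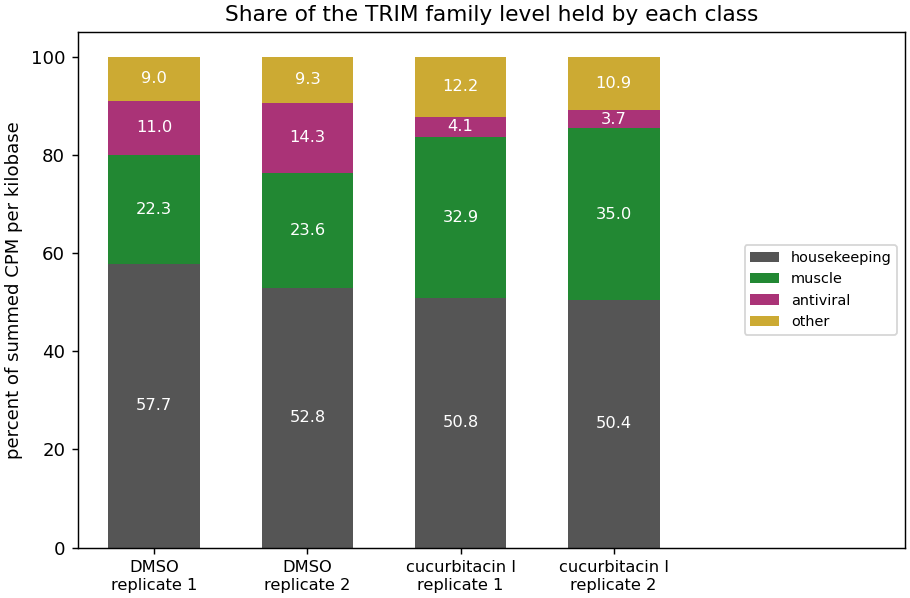
Share of the summed CPM per kilobase of exon of all TRIM genes held by each role class, in percent, for each of the 4 libraries, as stacked bars that add to the whole. The antiviral share is smaller and the muscle share larger in both cucurbitacin I libraries, and housekeeping genes hold the largest share in all 4.

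The authors' deposited table, made from the same 4 libraries, gave 18 lower and 9 higher of the 46 tested members at an adjusted p below 0.05. All 23 calls made here are among them in the same direction. The other 4 are Trim28 (adjusted p = 0.00385 in the authors' deposited table), Trim27 (0.00471 there), Trim23 (0.0293 there) and Trim36 (0.00986 there), which were named after their values were seen. Of members not tested here, Trim30d (adjusted p = 0.0325 in the authors' deposited table) and Trim58 (0.0178 there) were also lower there.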

How the data were processed

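RNA was sequenced from 4 libraries, 2 per group, made with a TruSeq kit per the labels' protocols. The submitters' processing notes name STAR 2.3.0e, HTSeq 0.6.0 and build mm10. The sources used here give neither the annotation release nor the strand setting. The deposited table has raw counts of each gene in every library, per the file headers. Beside them the authors deposited a normalized signal, in which 1 size factor divides all counts of a library. Their own comparison is there as a log2 fold change, a standard error and a test statistic (both entered as a score), and a p-value with its adjusted form, per the file headers.

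Of 43374 lines, 4195 repeated a gene ID and were left out. The test was edgeR 4.0.16 under R 4.3.3, with filterByExpr (a minimum of 10 counts, here 0.382 CPM), TMM factors, glmQLFit and 2-sided glmQLFTest of cucurbitacin I against DMSO, Benjamini-Hochberg adjustment over 16722 genes and a threshold of 0.05. CPM are TMM-scaled, and CPM per kilobase use the union of exons in GENCODE M21. The deposited gene ends were identical to that release for 42 of the 67 member IDs it holds. For Trim28 they differed by 25038 bp, so ranks per kilobase depend on the release. The fit had 2 residual and 3.54 prior degrees of freedom, a common biological variation of 15.7% and a median standard error of 0.172. The correlation across genes was 0.988 and 0.987 between replicates and 0.920 to 0.934 between groups. Replicates differed beyond sampling noise (chi-square per degree of freedom 19.3 and 25.9), more than a library deposited again would; this does not show separate cultures. Tested genes with under 10 counts in a library, Trim66 apart, are also given as ratios of scaled counts with exact 95% binomial intervals, which cover counting error only; 3 counts over the group stand in for a group at 0. Coordinates are the deposited table's, and promoter sequences are from RefSeq.

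The members, role lists and context lists were chosen with earlier results of these data known. Named were all Trim genes of the role lists, every other Trim gene past the threshold, and the extremes of those that were not. Alternatives were median-of-ratios factors, library totals, DESeq2 1.42.0, limma-voom (limma 3.58.1), a replicate block, no filter, a threshold of 0.01, each library left out in turn, a mean of at least 50 counts, and leaving out the 20 most abundant genes. The test was checked on simulated data. A gene of the interferon list is not reported here by name.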

Additional observations from a re-analysis of the deposited data

How the results depend on the processing

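Of the 23 called members, 11 kept their call and direction in all 13 alternatives, and Trim10 and Trim34b did in the 12 that test them, since a mean of at least 50 counts leaves them out. With 1 library left out, members called lower numbered 10 to 13 and higher 3 to 6, and of all genes 1461 to 3001 were lower and 389 to 2109 higher; a group left with 1 library was assumed to vary like the other. At a threshold of 0.01 there were 10 members lower and 4 higher, and 1262 genes lower and 492 higher. Library totals gave 4 members and 1059 genes higher, and medians of −0.18 for housekeeping and −0.23 for other members. With a mean of at least 50 counts, which tests fewer genes, the antiviral median was −2.07, the housekeeping median 0.022 and the median of the others 0.258. limma-voom gave 0.072 for the others. With 1 library left out, medians ranged from 0.015 to 0.090 for housekeeping and from −0.072 to 0.097 for other members. Signs turned with library totals for Trim24 (−0.21), Trim32 (−0.13), Trim35 (−0.13), Trim41 (−0.18) and Trim44 (−0.12), and with 1 library left out for Trim24 (from −0.038 to 0.104), Trim41 (from −0.011 to 0.121) and Trim66 (from −1.07 to 0.94); none of these was called, and the cause was not tested. An unadjusted p below 0.05 was found for 29 members. The share of all genes at that threshold was not counted, so nothing is drawn from this number.

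The labels number the replicates 1 and 2 in each group. The replicate differences within the groups correlated at 0.242 across genes, with only 2 pairs, so the libraries share a number and are not taken as pairs. With a replicate block 16 members were lower and 10 higher, and of all genes 3707 were lower and 2660 higher. Of the genes named, Trim23 (adjusted p = 0.0328) and Trim63 (adjusted p = 0.012) passed in addition in edgeR. Groups of 2 libraries allow no test for an outlying library, and genes of a few counts are limited by depth.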
